A study of Mus musculus with 16 samples.

Results

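Genes of the major histocompatibility complex (MHC), of antigen processing and of the proteasome were followed in whole mouse colon with and without colitis. Members were all gene symbols in the 4 deposited tables that start with H2- or with Psm, a letter from a to g and a digit, the cathepsins (Cts and 1 letter), and Tap1, Tap2, Tapbp, Tapbpl, B2m, Ciita, Nlrc5 and Erap1. The rule used symbols and no measured value, and it found 68 of the 5171 genes. They comprised 12 class I genes, 8 class II genes, 5 peptide loading genes, 2 transactivators, 6 genes of the immunoproteasome and its activator, 25 genes of the constitutive proteasome and 8 cathepsins. The remaining 2 matched by symbol alone, namely H2-Ke6, a hydroxysteroid dehydrogenase gene of the MHC region, and Psmc3ip, whose product is known for meiotic recombination.

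All mice were male C57BL/6 and were matched for age, which the labels do not give. WT (wild type) animals were set against animals in which Cre recombinase under the villin promoter (Vil-Cre) removes exons of the chromatin remodelling ATPase Smarcad1 (Smarcad1 fl/fl, KO). The villin promoter is active in the intestinal epithelium, so the leukocytes and muscle of the colon keep the gene, and the floxed allele goes back to 1 line of embryonic stem cells. The treatment notes describe transfer of an enriched microbiota from donor mice, starting 2 weeks before colitis. By the same notes, dextran sodium sulphate (DSS), a polymer that injures the epithelium, was given at 1% in drinking water over 15 days. The paper describes the control mice as enriched for microbiota too and as untreated, so DSS went to the colitis groups only. RNA came from pieces of the whole colon wall and not from sorted epithelium. There were 3 control and 5 colitis libraries of WT, and likewise 3 and 5 of KO.

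The deposited tables give the authors' mean of each group in log2 RPM (reads per M counted reads) and no value of a single library, so no value below carries an SD and no difference was tested here. A gene has a row in a table when the authors' DESeq2 test of that comparison gave an adjusted p-value under 0.05. Such a gene is called listed below, and "rose" and "fell" are used of listed genes only. Every gene of the tables passed in at least 1 comparison, and genes that passed in none were not analysed here. The geometric mean library size recovered from the lowest means was 10.1 M (WT) and 9.77 M (KO) in the controls and 8.005 M (WT) and 9.87 M (KO) in colitis. Of the 68 members, 0 had a mean at or under 3 reads per library in any group. Smarcad1 itself was lower in KO by 1.18 log2 in control and by 1.13 in colitis and was listed in both comparisons of genotypes. The smooth muscle genes Acta2 and Myh11 had 10.64 and 10.98 log2 RPM in WT control and lower means in colitis, by 0.58 and 0.66 log2 in WT and by 0.47 and 0.59 in KO, where Acta2 was not listed. Their part in the members' changes was not tested. None of the 7 epithelial markers (Epcam, Cdh1, Vil1 and 4 keratins) had a row.

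MHC class I molecules carry peptides from proteins cut in the cytosol to the cell surface, where CD8 T cells inspect them. The proteasome makes these peptides, the transporter subunits Tap1 and Tap2 move them into the endoplasmic reticulum, and tapasin (Tapbp) and the trimming peptidase Erap1 help to load them. Interferon gamma induces Psmb8, Psmb9 and Psmb10, which replace the catalytic subunits of the constitutive proteasome and so form the immunoproteasome, and it induces the proteasome activator subunits Psme1 and Psme2. MHC class II molecules carry peptides from endosomes to CD4 T cells. Dendritic cells, macrophages and B cells make them constitutively, and intestinal epithelium makes them during inflammation. Cathepsins degrade proteins in endosomes and cut the invariant chain (Cd74) that occupies new class II molecules, and the H2-DM proteins then exchange its last fragment for peptide. Ciita and Nlrc5 are the transcriptional coactivators of class II and class I genes.

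Class I and class II promoters share a short array of motifs, of which the X box is bound by the RFX complex and the Y box by NF-Y. The 250 bases upstream of RefSeq start sites (GRCm38.p6) were searched on both strands for 6 motifs, and 56 of the 68 members had an entry. The following stretches lie outside annotated exons and are shown for 3 class I and 2 class II genes whose values are given below, with Psmd2 of the constitutive proteasome as a gene with no match. Each is written 5′ to 3′ along its gene's strand and ends at the base before a start site. Capitals mark the Y box CCAAT on either strand, the X box core AGNNACNGA, the kappa B core GGGANTNCC and, in H2-K1 alone, the antioxidant response element TGACNNNGC on the other strand.
H2-K1 (chr17:34000348-34000597, minus strand): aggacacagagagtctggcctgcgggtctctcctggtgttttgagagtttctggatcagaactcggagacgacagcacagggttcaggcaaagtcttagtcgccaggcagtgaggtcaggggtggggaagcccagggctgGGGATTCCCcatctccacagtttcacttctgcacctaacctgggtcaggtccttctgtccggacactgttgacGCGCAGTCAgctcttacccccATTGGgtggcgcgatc
H2-Q6 (chr17:35424600-35424849, plus strand): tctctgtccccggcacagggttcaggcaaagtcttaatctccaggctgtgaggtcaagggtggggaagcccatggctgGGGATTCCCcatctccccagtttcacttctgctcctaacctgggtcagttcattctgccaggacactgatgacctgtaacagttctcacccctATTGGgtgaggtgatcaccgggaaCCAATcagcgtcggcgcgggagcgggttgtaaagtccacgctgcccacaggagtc
H2-Q7 (chr17:35438905-35439154, plus strand): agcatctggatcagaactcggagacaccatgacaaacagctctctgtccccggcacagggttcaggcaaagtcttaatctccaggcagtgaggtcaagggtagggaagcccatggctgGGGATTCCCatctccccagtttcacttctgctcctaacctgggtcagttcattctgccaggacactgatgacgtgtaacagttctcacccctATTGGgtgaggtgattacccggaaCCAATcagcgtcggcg
H2-Aa (chr17:34287824-34288073, minus strand): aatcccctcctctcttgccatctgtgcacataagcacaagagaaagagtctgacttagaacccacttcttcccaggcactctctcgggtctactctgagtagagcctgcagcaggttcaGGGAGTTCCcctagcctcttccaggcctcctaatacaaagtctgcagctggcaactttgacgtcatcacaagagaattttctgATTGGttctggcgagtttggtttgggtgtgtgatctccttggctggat
H2-Eb1 (chr17:34305721-34305866, plus strand): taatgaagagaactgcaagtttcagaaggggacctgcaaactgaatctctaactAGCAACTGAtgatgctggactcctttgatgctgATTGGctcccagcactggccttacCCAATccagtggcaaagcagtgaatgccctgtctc
Psmd2 (chr16:20651402-20651651, plus strand): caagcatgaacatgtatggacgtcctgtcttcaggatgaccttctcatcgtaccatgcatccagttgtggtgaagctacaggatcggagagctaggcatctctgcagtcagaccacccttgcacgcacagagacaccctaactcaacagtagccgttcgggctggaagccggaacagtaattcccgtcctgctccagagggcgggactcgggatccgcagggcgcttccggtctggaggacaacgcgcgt

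The Y box letters were present upstream of 10 of 11 class I genes (90.9%) and of 7 of 7 class II genes, against 37.5% of the 27025 genes in the promoter table and 8 of 21 constitutive proteasome genes (38.1%). The H2-DMa match lies before a RefSeq start site at 34125518, whereas the measured gene begins at 34135182, so it may not belong to the measured promoter. The X box core was present in 4 of 7 class II genes (57.1%), namely H2-DMb1, H2-Eb1, H2-Eb2 and H2-Oa, against 16.5% of all genes. The kappa B core was present in 6 of 11 class I genes (54.5%) against 3.87% of all genes, and in no immunoproteasome or constitutive proteasome gene. The interferon stimulated response element core GAAANNGAA was present in B2m, H2-T22 and H2-T23 among class I genes (27.3%) against 8.18% of all genes, and in no class II or immunoproteasome gene. The interferon gamma activated site TTCNNNGAA was present in 4 of 56 members (7.14%), namely H2-M3, H2-DMb2, Psmb8 and Ctsc, close to the 8.13% of all genes, and the antioxidant response element in 4 of 11 class I genes (36.4%) against 11.5%. None of these motifs is contained in another. Class I genes arose by duplication and share promoter sequence, as the stretches of H2-Q6 and H2-Q7 show, so their matches are not independent. A match is a run of letters and no evidence of binding.

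**Figure D1:**
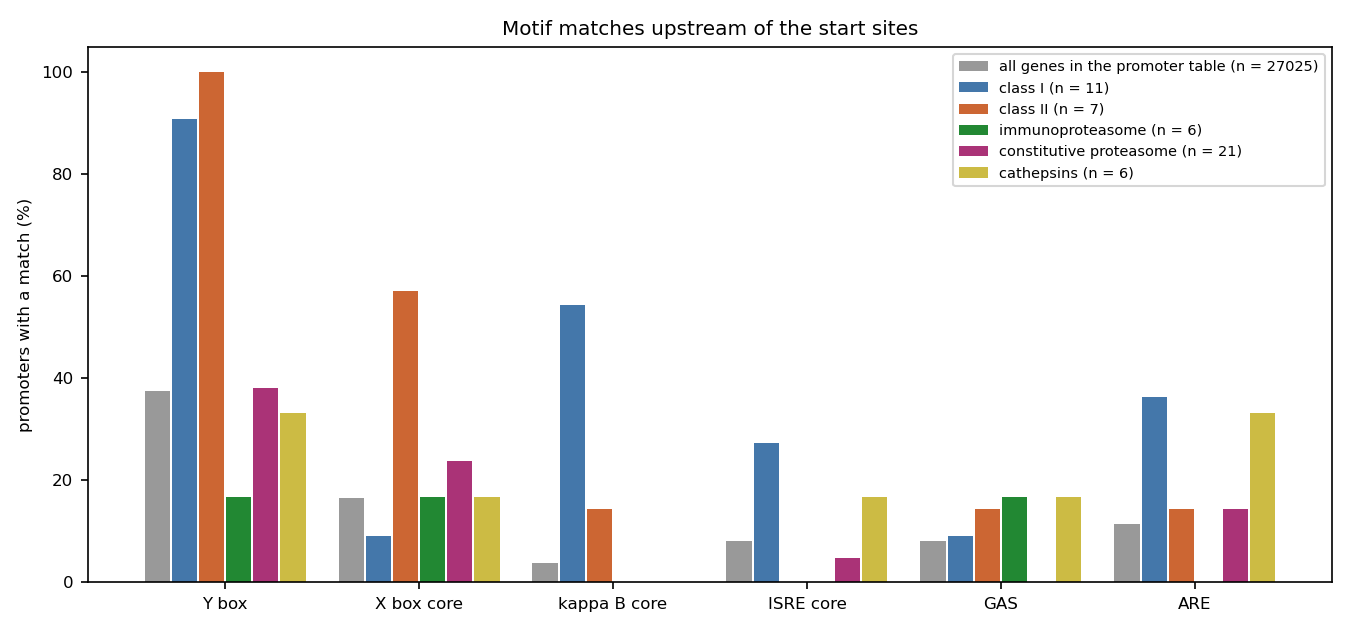
Share of genes (%) with at least 1 match in the 250 bases before a start site, for each of 6 motifs (ISRE, interferon stimulated response element; GAS, interferon gamma activated site; ARE, antioxidant response element). Grey bars are all genes of the promoter table and coloured bars the gene groups, and the Y box bars of class I (90.9%) and class II stand above the grey bar (37.5%).

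Most members were higher in colitis in both genotypes. In WT, 50 of the 68 members were listed as higher in colitis (73.5%, against 36.6% of all 5171 genes) and 1 as lower (1.47%, against 26.4%). In KO, 63 were listed as higher (92.6%, against 44.8% of all genes) and 2 as lower (2.94%, against 33.6%). The tables of both genotypes listed 48 members, WT alone 3 and KO alone 17. Over all 5171 genes the same counts were 2182, 1079 and 1874, so KO alone also exceeded WT alone there. The difference between genotypes was not tested. The colitis mean was at least 2-fold higher for 20 members in WT (29.4%, against 18.4% of all genes) and for 24 in KO (35.3%, against 16.0%). The median change over all genes was itself 0.13 log2 in WT and 0.19 in KO, and 62 members in WT and 61 in KO lay above it. Members of 1 complex or 1 gene family are not independent of each other, and in bulk tissue more cells of a type cannot be told apart from more RNA per cell.

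**Figure D2:**
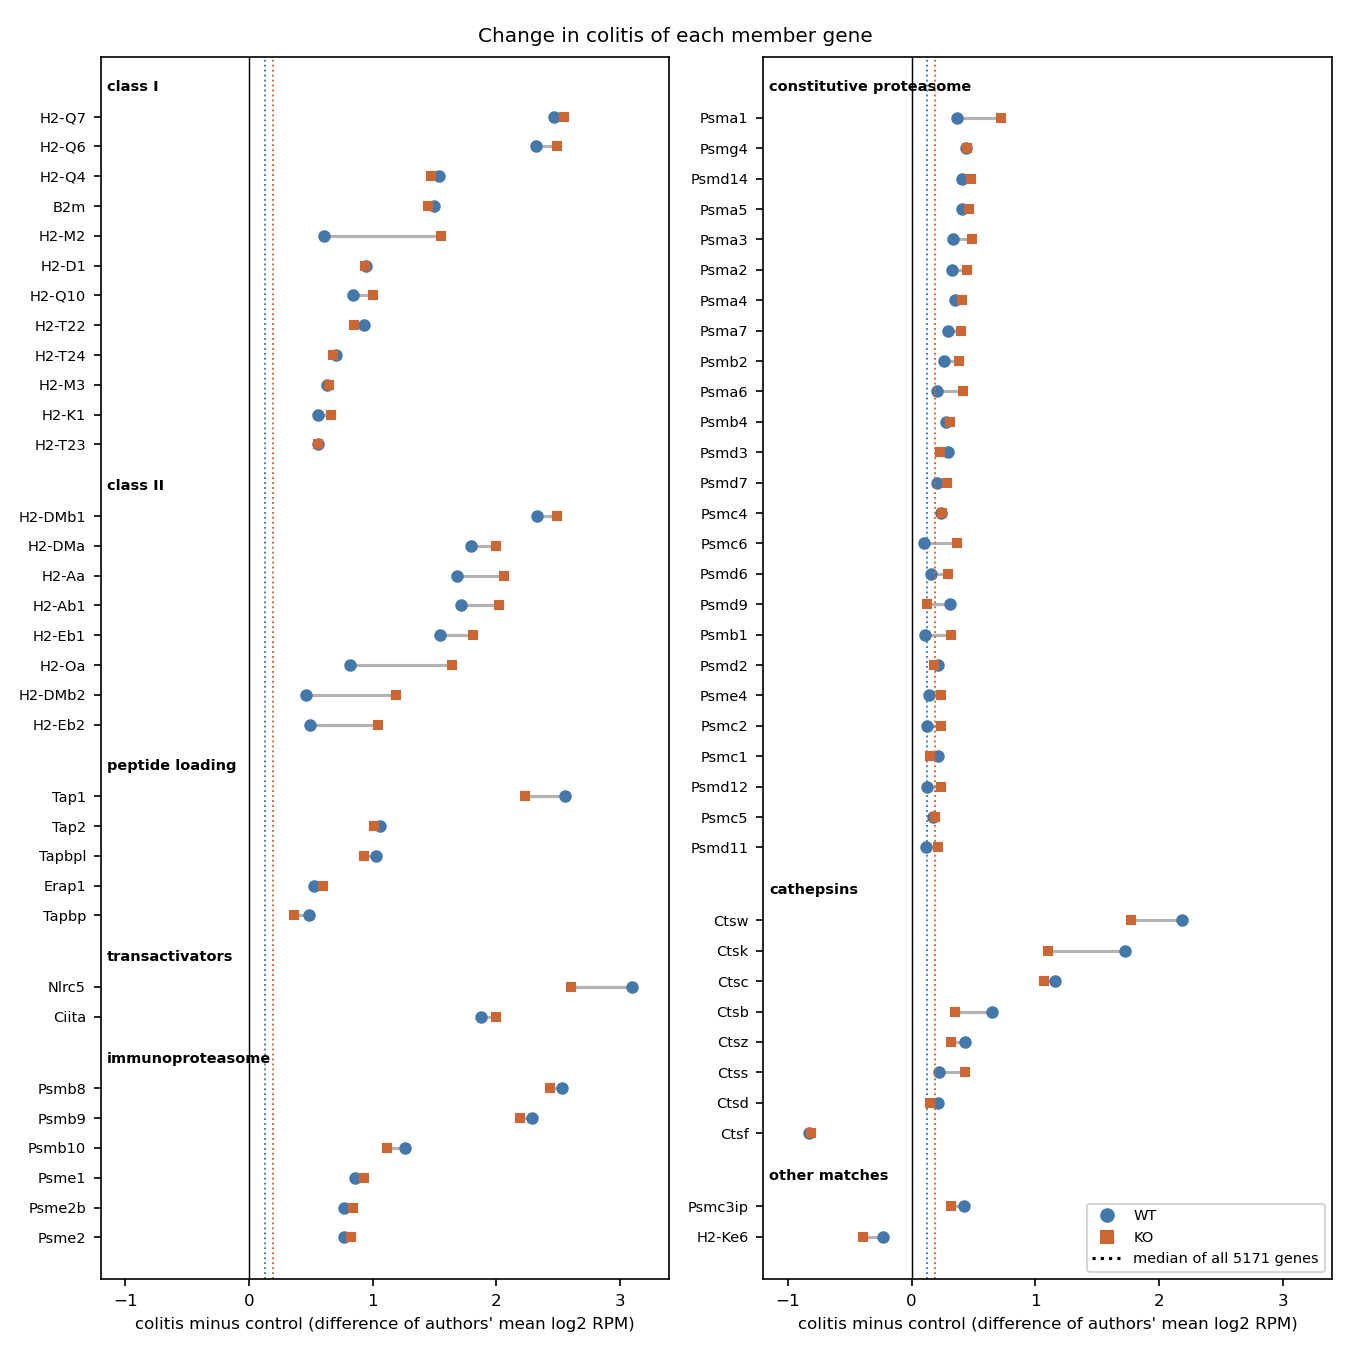
Colitis mean minus control mean on the log2 RPM scale (horizontal axis) for each of the 68 members, with WT as blue circles and KO as orange squares, ordered within each group by the average of both. Dotted lines mark the median of all 5171 genes (0.13 in WT and 0.19 in KO); Nlrc5, H2-Q7, Tap1 and Psmb8 lie farthest to the right, and Ctsf and H2-Ke6 lie to the left of 0.

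Class I genes were higher in colitis throughout. All 12 were listed as higher in KO (against 44.8% of all genes) and 10 in WT (against 36.6%), where H2-M2 and H2-T24 had no row. The median change was 0.89 log2 in WT and 0.97 in KO. In the values that follow, the authors' means stand in the order WT then KO control and WT then KO colitis. H2-Q7 (chromosome 17 from 35439155 to 35443773), a nonclassical class I gene, had means of 4.52, 4.69, 6.98 and 7.24 log2 RPM and rose 5.52-fold in WT and 5.84-fold in KO. Its neighbour H2-Q6 (35424850 to 35430055) had means of 4.50, 4.62, 6.82 and 7.11 log2 RPM and rose 4.99-fold and 5.62-fold. H2-Q4 had 6.34, 6.51, 7.88 and 7.98 log2 RPM, a rise of 2.90-fold in WT and 2.77-fold in KO. In each of these H2-Q genes both colitis means lay above both control means. Of all stretches of 100 bases, the read length, in the transcripts of H2-Q7 and H2-Q6, 12.9% and 10.8% also occur in another gene. A single read within such a stretch does not map uniquely, whereas the mate of a paired read can still place it, and the sources differ on whether reads were paired. Over 10% of such stretches were shared in 10 members and antisense to another gene in 7, while 46 members shared none.

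B2m, the light chain of every class I molecule, had means of 9.20, 9.44, 10.69 and 10.88 log2 RPM and rose 2.81-fold in WT and 2.72-fold in KO. Of the classical heavy chains, H2-D1 had means of 10.73, 10.83, 11.67 and 11.77 log2 RPM, a rise of 1.93-fold and 1.92-fold. H2-K1 had means of 10.86, 10.95, 11.43 and 11.61 log2 RPM, a rise of 1.48-fold in WT and 1.58-fold in KO. Per length of annotated exons these were the most abundant members, at 9.42 (B2m), 9.36 (H2-D1) and 9.31 (H2-K1) log2 RPKM (RPM per kilobase) in WT control. The light chain thus moved further than either classical heavy chain.

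H2-T23, a ligand of inhibitory receptors on natural killer cells, had means of 8.46, 8.62, 9.02 and 9.18 log2 RPM. H2-T22, a ligand for some gamma delta T cell receptors, had 6.53, 6.64, 7.46 and 7.49 log2 RPM, and 30.5% of its 100-base stretches are antisense to another gene. H2-M3, which presents formylated bacterial peptides, had 4.10, 4.18, 4.73 and 4.83 log2 RPM. These 3 genes rose in both genotypes, by 1.47-fold to 1.91-fold in WT and by 1.48-fold to 1.80-fold in KO. H2-Q10, a secreted class I gene known from liver, had 3.09, 3.39, 3.93 and 4.39 log2 RPM and also rose in both. H2-T24 had 2.53, 2.64, 3.24 and 3.32 log2 RPM and rose in KO. H2-M2 had 1.95, 1.92, 2.56 and 3.47 log2 RPM, so that its change was 0.61 log2 in WT and 1.55 in KO, where it rose. Its KO colitis mean was 1.88-fold that of WT colitis, the largest such ratio among the 68 members, at a counting error of 0.11 log2 that leaves out the spread between mice. H2-M2 was listed in the colitis comparison of KO alone, which favours a high rank here.

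The genes that load class I peptides split by size of change. Tap1 (chromosome 17 from 34187553 to 34197225) had means of 5.60, 5.95, 8.15 and 8.18 log2 RPM and rose 5.86-fold in WT and 4.70-fold in KO. Its partner Tap2 had 6.33, 6.40, 7.38 and 7.41 log2 RPM and rose 2.08-fold and 2.01-fold. Tapbpl, the tapasin-like peptide editor, had 6.08, 6.14, 7.11 and 7.07 log2 RPM, a rise of 2.04-fold and 1.90-fold. Both transporter subunits and Tapbpl therefore stood near or above 2-fold in both genotypes. Erap1 had 7.49, 7.43, 8.02 and 8.03 log2 RPM, a rise of 1.44-fold in WT and 1.52-fold in KO. Tapbp had 8.40, 8.44, 8.89 and 8.80 log2 RPM and rose in KO by 1.29-fold, while in WT it had no row and its means differed by 0.48 log2. The chaperones Calr, Canx, Pdia3 and Erp29, of a list of 7 related genes, were in the tables with WT changes of 0.24 to 0.32 log2 and KO changes of 0.21 to 0.48. All 4 rose in KO and Pdia3 alone in WT.

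Nlrc5 had the largest change of all 68 members in both genotypes. Its means were 2.65, 3.08, 5.74 and 5.68 log2 RPM, a rise of 8.53-fold in WT and 6.07-fold in KO. Ciita had means of 3.85, 4.11, 5.73 and 6.11 log2 RPM, a rise of 3.68-fold and 3.99-fold. The colitis mean of Nlrc5 was 0.06 log2 lower in KO than in WT, and that of Ciita was 0.37 higher. Neither was listed between genotypes.

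Of the 10 genes fixed for interferon gamma signalling, 6 were in the tables and all 6 rose in both genotypes. Irf1, a transcription factor that interferon gamma induces, rose 1.87-fold in WT and 1.71-fold in KO. Ifng, the cytokine itself, was at or under 3 reads per library in both control groups and its colitis level was at least 8.49-fold higher in WT and at least 3.17-fold higher in KO. Its colitis mean was 1.33 log2 RPM in WT and −0.04 in KO, a difference of −1.37 with a counting error of 0.25, and it was not listed between genotypes. Of these 6 genes, Irf8 alone had a KO colitis mean above that of WT, by 0.01 log2.

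**Figure D3:**
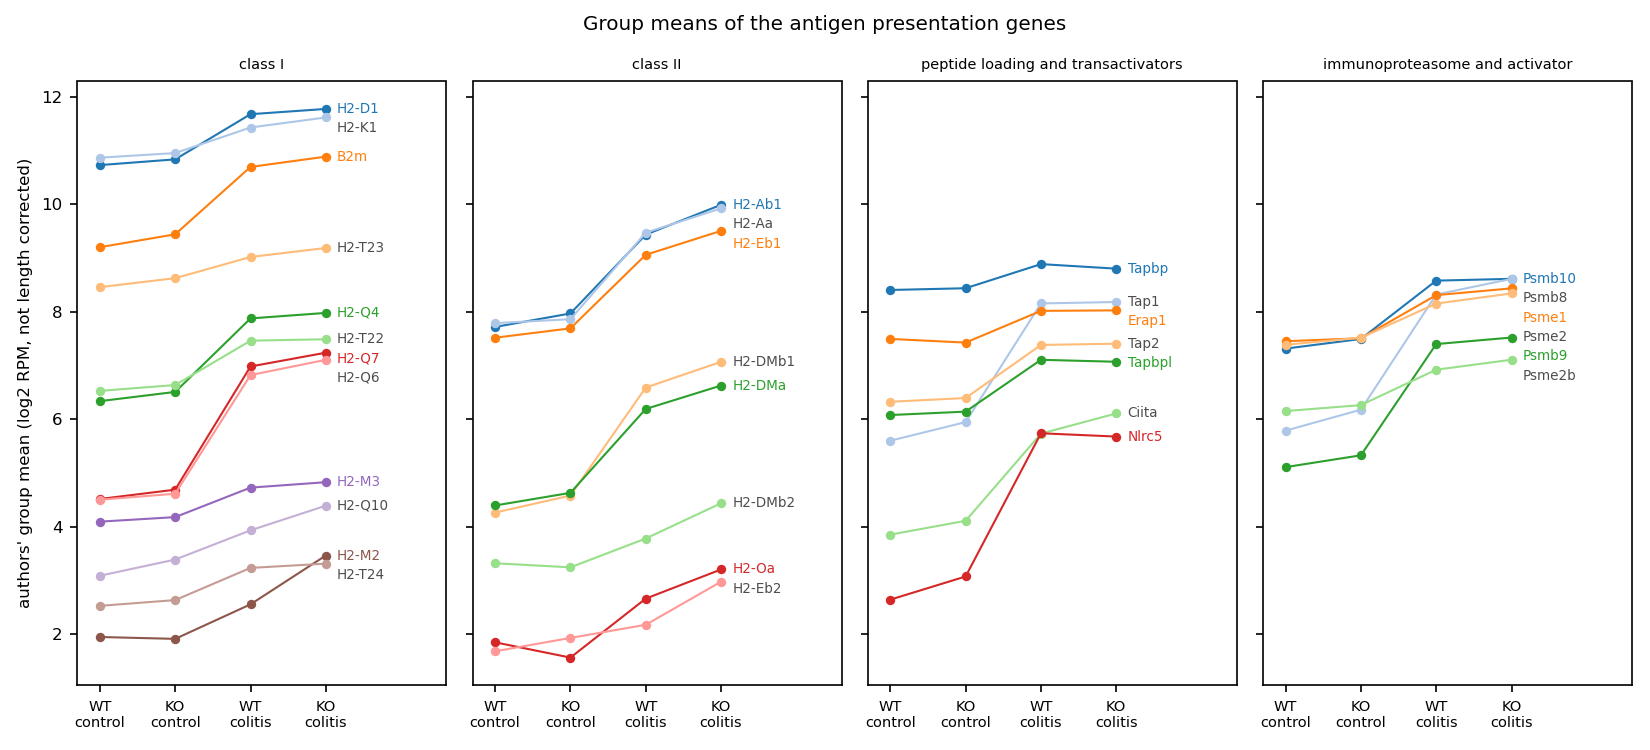
The authors' group means (vertical axis, log2 RPM, not corrected for length) in the control and colitis groups of WT and KO for the class I, class II, peptide loading, transactivator and immunoproteasome genes, 1 line per gene. Lines join the means of 1 gene and show no order in time, and no error bars are drawn because values of single libraries were not used. Both colitis means of H2-Q6, H2-Q7, Tap1, Nlrc5, Psmb8 and Psmb9 lie well above both control means, and each class II line climbs further from WT colitis to KO colitis.

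Class II genes were higher in colitis, and all 8 had a higher colitis mean in KO than in WT (against 47.4% of all genes). All 12 class I genes and all 6 genes of the immunoproteasome and its activator did so too, with smaller median differences. The median colitis change of class II was 1.61 log2 in WT and 1.90 in KO. All 8 class II genes rose in KO (against 44.8% of all genes). In WT 5 rose (against 36.6%), while H2-Eb2, H2-Oa and H2-DMb2 had no row in its table. H2-Ab1 (chromosome 17 from 34263209 to 34269418), a beta chain, had means of 7.72, 7.97, 9.43 and 9.99 log2 RPM and rose 3.29-fold in WT and 4.06-fold in KO. H2-Aa (34282744 to 34287827), the alpha chain, had 7.79, 7.86, 9.47 and 9.92 log2 RPM, a rise of 3.21-fold and 4.17-fold. H2-Eb1 (34305877 to 34316199), the beta chain of the other isotype, had 7.52, 7.69, 9.06 and 9.50 log2 RPM, a rise of 2.91-fold and 3.51-fold. For these chains of the classical molecules the KO colitis mean was 1.37-fold (H2-Aa), 1.47-fold (H2-Ab1) and 1.36-fold (H2-Eb1) that of WT colitis.

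The peptide exchange subunits differed among themselves. H2-DMa had means of 4.40, 4.63, 6.19 and 6.63 log2 RPM and rose 3.47-fold in WT and 3.99-fold in KO. H2-DMb1 had 4.26, 4.58, 6.59 and 7.07 log2 RPM, a rise of 5.01-fold and 5.61-fold. Its near copy H2-DMb2, with which it shares 13.7% of its 100-base stretches, had 3.32, 3.25, 3.78 and 4.44 log2 RPM, a change of 0.46 log2 in WT and a rise of 1.19 in KO. H2-Oa, which restrains H2-DM and is known from B cells, had 1.85, 1.57, 2.67 and 3.21 log2 RPM, a change of 0.81 in WT and a rise of 1.64 in KO. H2-Eb2 had 1.69, 1.93, 2.18 and 2.98 log2 RPM, a change of 0.49 in WT and a rise of 1.05 in KO. The differences between the KO and the WT change were 0.73, 0.83 and 0.55 log2 in H2-DMb2, H2-Oa and H2-Eb2, and 0.16 to 0.38 in the other 5 class II genes. H2-DMb2, H2-Oa and H2-Eb2 were listed in the colitis comparison of KO alone, which favours a larger change in KO. H2-Oa and H2-Eb2 were also among the least abundant members, with counting errors of the colitis change in WT of 0.16 and 0.18 log2. The gene BC051537 on the opposite strand spans H2-Oa and was 0.66 log2 higher in colitis in KO than in WT, and whether the counting used strand is not given in the sources used here.

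Cd74, the invariant chain and the most abundant partner of class II in the tables, had means of 8.72, 8.77, 10.51 and 10.90 log2 RPM and rose 3.46-fold in WT and 4.37-fold in KO. It was thus 0.38 log2 higher in KO colitis than in WT colitis, just under the 0.44 to 0.80 of the 8 class II genes. Of the 8 partners of class II on the list, Lgmn, Ifi30 and March1 also had rows. Lgmn, an endosomal protease, was 0.19 log2 lower in KO colitis, and Ifi30, a thiol reductase, 0.10 higher. The costimulatory genes Cd40, Cd80 and Cd86 were higher in both colitis groups, with KO colitis means 0.06 to 0.69 log2 below those of WT colitis.

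Between genotypes, none of the 68 members was listed, in control (0.89% of all genes were) or in colitis (1.08% were). By mean alone, 50 members were higher in KO control than in WT control (73.5%, against 51.0% of all genes) and 58 were higher in KO colitis than in WT colitis (85.3%, against 47.4%). The colitis change was larger in KO for 43 members (63.2%, against 47.3% of all genes), which includes all 8 class II genes. In colitis the median of KO minus WT was 0.51 log2 over class II, 0.18 over class I, 0.16 over the immunoproteasome and its activator, 0.07 over the constitutive proteasome, 0.01 over peptide loading and −0.06 over cathepsins, beside −0.01 over all genes. In control the same medians were 0.20, 0.11, 0.15, −0.01, 0.06 and 0.06, beside 0.00 over all genes. Without H2-Eb2, H2-Oa and H2-DMb2, which were listed in KO alone, the class II median of KO minus WT in colitis was 0.45 log2. The 17 members listed in KO alone entered through the KO colitis change, and this selection bears on the counts above. None of these differences was set against the spread between mice.

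**Figure D4:**
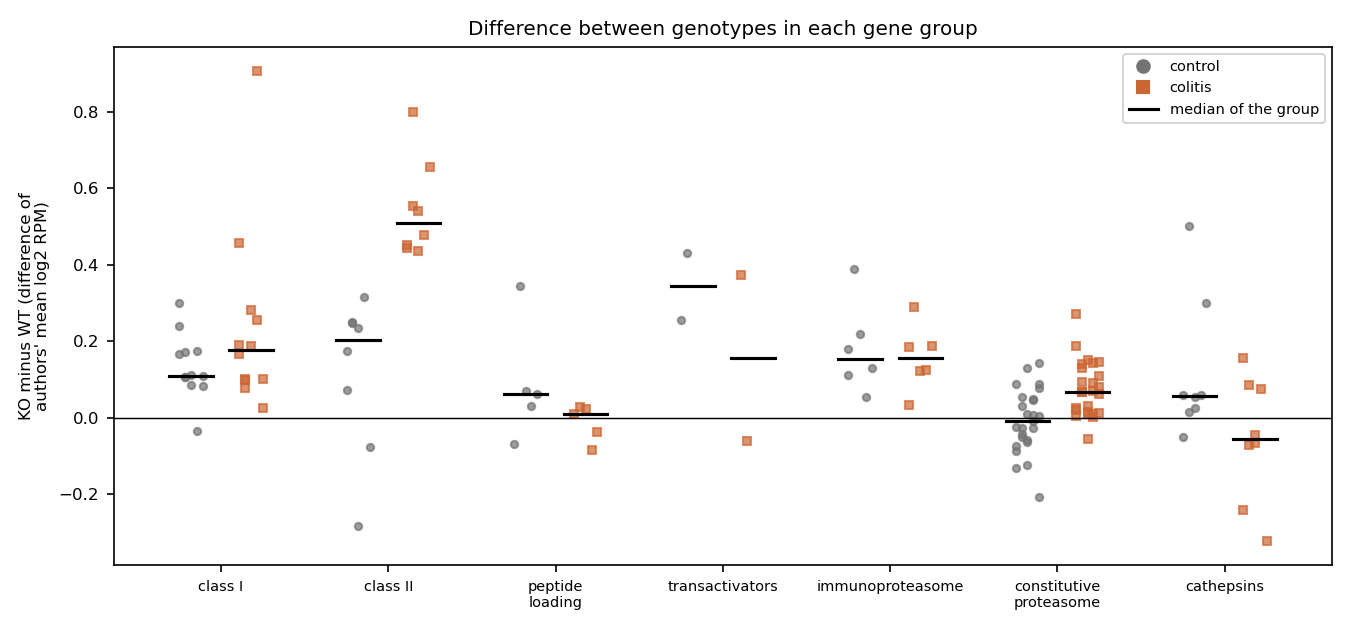
KO mean minus WT mean on the log2 RPM scale (vertical axis) in control (grey circles) and colitis (orange squares) for the members of 7 gene groups, with a black bar at each group's median. In colitis the 8 class II genes lie between 0.44 and 0.80, above most members of the other groups, and H2-M2 is the highest class I point at 0.91.

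Markers of the cell types of the colon were set beside these values, and none of them was listed between genotypes. All 4 of 4 pan-leukocyte markers were in the tables, and their summed level was 179 and 172 RPM in WT and KO control and 441 and 473 RPM in WT and KO colitis. For 4 of 5 dendritic cell markers the sum was 26.1, 22.0, 54.6 and 61.6 RPM. In colitis all 4 were higher in KO (against 47.4% of all genes), by 0.10 to 0.42 log2. In control all 4 were lower in KO, with differences of −0.50 to −0.06 log2. Of the 5 B cell markers, Cd79b alone had a row, at 9.23, 10.7, 10.8 and 20.4 RPM, so its colitis mean was 0.91 log2 higher in KO, and the rest of that list was not analysed here. Cd79b and the dendritic cell marker Xcr1 were listed in the colitis comparison of KO alone, which favours a high KO colitis mean. All 6 macrophage and monocyte markers had rows, and 1 of the 6 was higher in KO colitis, with sums of 605, 636, 1454 and 1414 RPM. The 5 T cell markers summed to 17.6, 16.9, 54.4 and 57.3 RPM. The 5 neutrophil markers summed to 2.34, 2.74, 173 and 39.8 RPM and in colitis were each lower in KO, by 0.90 to 2.77 log2. The part of any of these cell types in the class II values was not tested.

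The immunoproteasome rose in both genotypes with little difference between them. Psmb8 (chromosome 17 from 34197721 to 34201454) had means of 5.79, 6.18, 8.32 and 8.61 log2 RPM and rose 5.78-fold in WT and 5.40-fold in KO. Psmb9 (34181988 to 34187764) had 5.11, 5.33, 7.40 and 7.52 log2 RPM, a rise of 4.88-fold and 4.56-fold. Psmb10, which lies on chromosome 8 outside the MHC, had 7.31, 7.49, 8.58 and 8.61 log2 RPM, a rise of 2.40-fold and 2.17-fold. For these 3 catalytic subunits the KO control mean exceeded that of WT by 0.18 to 0.39 log2 and the colitis change was 0.10 to 0.15 smaller in KO. Psmb9 and Tap1 run in opposite directions from start sites 226 bases apart, and their table coordinates overlap.

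The activator subunits moved less and by like amounts. Psme1 had means of 7.45, 7.51, 8.31 and 8.43 log2 RPM and rose 1.81-fold in WT and 1.90-fold in KO. Psme2 had 7.39, 7.52, 8.15 and 8.34 log2 RPM, a rise of 1.70-fold and 1.77-fold. Psme2b, which lies on chromosome 11, had 6.15, 6.26, 6.92 and 7.11 log2 RPM, a rise of 1.70-fold and 1.79-fold. Psme2b shares 52.0% of its 100-base stretches with Psme2, so that the values of this pair are uncertain as separate genes.

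The constitutive proteasome was higher in colitis by small amounts. Its 25 members had changes of 0.10 to 0.44 log2 in WT and of 0.13 to 0.73 in KO, with medians of 0.24 and 0.31, and 21 members in each genotype lay above the median of all genes. In WT 16 of the 25 rose (against 36.6% of all genes) and in KO 22 (against 44.8%), and none reached 2-fold. The 7 alpha subunits of the 20S core had the larger medians, 0.33 in WT and 0.44 in KO, against 0.18 and 0.24 for the 5 ATPases of the 19S cap and 0.21 and 0.23 for the 8 other 19S subunits. The beta subunits Psmb5, Psmb6 and Psmb7, which the inducible subunits replace, were not analysed here.

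Of the 5 members with the highest average change, Psma1, an alpha subunit, had means of 7.68, 7.59, 8.05 and 8.32 log2 RPM and rose 1.29-fold in WT and 1.65-fold in KO. Psmg4, an assembly chaperone, had 3.82, 3.83, 4.26 and 4.28 log2 RPM, and the deubiquitinase of the cap Psmd14 had 6.64, 6.58, 7.05 and 7.06. Psma5 had 6.98, 7.07, 7.39 and 7.53 log2 RPM, and Psma3 had 7.61, 7.49, 7.94 and 7.97, with 27.5% and 20.6% of their 100-base stretches also found in other genes. All 5 rose in both genotypes, and even the largest of these changes was below that of any immunoproteasome gene. The 5 lowest were the 19S subunits Psmd11, Psmc5, Psmd12, Psmc1 and Psmc2. Psmd11 had 6.99, 6.91, 7.10 and 7.13 log2 RPM, Psmc5 had 7.47, 7.47, 7.65 and 7.65, and Psmd12 had 6.84, 6.80, 6.97 and 7.04. Psmc1 had 7.52, 7.61, 7.73 and 7.75 log2 RPM, and Psmc2 had 7.30, 7.25, 7.43 and 7.49. Of these 5, Psmc1 rose in WT alone and the other 4 in KO alone. In colitis 24 of the 25 members had a higher mean in KO (96.0%, against 47.4% of all genes), and in control 12 did (48.0%, against 51.0%). The exception in colitis was Psmd9 at −0.05 log2. The median of KO minus WT in colitis was 0.07 log2, and members of 1 complex are not independent. Of the 25, 9 were listed in KO alone and 3 in WT alone, and listing in KO alone favours a high KO colitis mean.

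Pomp, the assembly factor of the core, rose 1.48-fold in WT and 1.45-fold in KO, and 4 of the 12 proteasome partners on the list had rows. Over all 40 genes of the pathway lists, 21 were in the tables, 16 rose in WT and 19 in KO, none fell, and none was listed between genotypes. Only genes with a row could be counted here, and of all 5171 such genes 36.6% rose in WT and 44.8% in KO.

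Cathepsins were mostly higher in colitis. In each genotype 7 of the 8 had a higher colitis mean, against 54.0% of all genes in WT and 54.3% in KO. Ctsw, known from cytotoxic lymphocytes, had means of −0.10, 0.40, 2.09 and 2.17 log2 RPM and rose 4.56-fold in WT and 3.42-fold in KO. Its WT control mean was the lowest of the 8 cathepsins and below those of H2-Oa and H2-Eb2, so its fold changes rest on few reads. Ctsk, a collagen-degrading protease, had 3.14, 3.44, 4.87 and 4.55 log2 RPM, a rise of 3.31-fold and 2.15-fold. Ctsc, which activates the serine proteases of leukocyte granules, had 7.31, 7.32, 8.47 and 8.40 log2 RPM, a rise of 2.24-fold and 2.11-fold. These are the 3 cathepsins past 2-fold, and none of the 3 is known mainly for class II processing. Ctss, which makes the late cuts in the invariant chain, had 9.23, 9.18, 9.46 and 9.61 log2 RPM, a change of 0.22 log2 in WT and a rise of 0.43 in KO. Ctsb had 10.00, 10.06, 10.66 and 10.42 log2 RPM, a rise of 1.57-fold and 1.28-fold. Ctsz had 8.28, 8.33, 8.72 and 8.65 log2 RPM, and Ctsd, an aspartic protease, had 9.50, 9.52, 9.71 and 9.67. Both rose in each genotype, by 1.11-fold to 1.35-fold, and 35.01% of the 100-base stretches of Ctsd belong also to the gene model Gm49369. Ctsf had 5.10, 5.16, 4.26 and 4.34 log2 RPM and was the only member to fall in both genotypes, to 0.56-fold in WT and 0.57-fold in KO. In colitis, 3 of the 8 cathepsins had a higher mean in KO (Ctss by 0.16, Ctsw by 0.09 and Ctsf by 0.07 log2) and 5 a lower one, with Ctsk at −0.32 and Ctsb at −0.24.

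The matches by symbol alone differed from each other. H2-Ke6 had means of 6.24, 6.43, 6.01 and 6.04 log2 RPM and fell in KO, to 0.76-fold, and 92.0% of its 100-base stretches also belong to the overlapping gene model Gm20427. Psmc3ip had 5.32, 5.41, 5.74 and 5.73 log2 RPM and rose in both genotypes, by 1.34-fold and 1.25-fold.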

How the data were processed

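Colon RNA was sequenced on BGISEQ-500. The authors mapped reads to GRCm38 with HISAT2 2.1.0 (version from the submitters' processing notes), kept uniquely mapped reads, removed reads over ribosomal RNA annotations after contamination in 3 samples, counted reads over exons of merged transcripts in SeqMonk and ran DESeq2 on raw counts for 2 groups at a time. The deposited tables hold the genes under an adjusted p-value of 0.05 in each of 4 comparisons, the authors' adjusted p-values (not used) and 4 log2 columns, the authors' mean log2 RPM of each group, not corrected for gene length.

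Changes were differences of these means, and groups were described by medians and counts (Python 3.11.15, pandas 2.3.3). Library sizes came from the steps of the lowest means, and a mean of 3 reads was the floor. Counting errors and floors cover counting error only. Per length values used GENCODE M21 exons, and 53 of 68 members had identical coordinates there. Calculations were checked on simulated data that used the same 0.9, so that check could not test this value.

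All means are given for class I, class II, loading, transactivator, immunoproteasome and cathepsin genes, and for the 5 highest and 5 lowest constitutive proteasome genes by average colitis change. Psmc3ip was moved out of the proteasome group after the tables were seen. The members, gene lists and motifs were chosen with earlier results of these data known. Alternatives were the mean, centring on all genes, narrower gene sets and other thresholds.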

Additional observations from a re-analysis of the deposited data

How the results depend on the processing

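No paired analysis was possible because the tables analysed here hold group means only, and for the same reason no replicate was left out. There were 36 results and 165 alternatives, 10 of them added after seeing the data. Of the 165, 154 values moved by at most 0.2 log2 or stayed within 1.5-fold of a count, and 11 moved further. Centring shifted each group median by at most 0.19 log2, which is under that tolerance, so it could not count as a move. It still took the WT change of the constitutive proteasome from 0.24 to 0.11 log2 and the KO change of cathepsins from 0.39 to 0.20. With the mean in place of the median, the WT change was 1.13 log2 for class I, 1.35 for class II and 1.41 for the immunoproteasome group, and the KO change was 1.24 for class I and 1.39 for the immunoproteasome group. With Psmb8, Psmb9 and Psmb10 alone (narrower gene set), the immunoproteasome change was 2.29 in WT and 2.19 in KO. Without Psme2b it was 1.26 in WT. At a log2 change of at least 0.5 in place of 2-fold, 34 members were higher in WT, and of listed members 31 in WT and 36 in KO had such a rise. In 3 alternatives a median near 0 changed sign, for KO minus WT of the constitutive proteasome in control, of peptide loading in colitis and of the immunoproteasome's colitis change. No member was low, so leaving out low means changed no value. The narrower gene sets were defined by symbol and not by shared sequence, for each group but peptide loading. Class I kept B2m, H2-D1, H2-K1 and H2-M3, and class II left out H2-DMb1 and H2-DMb2. The other sets left out the activator subunits (immunoproteasome group), Psme4 and Psmg4 (constitutive proteasome) and Ctsw (cathepsins). Psme2b alone of the genes in the 6 groups shared over 50% of its stretches. The spread between mice was not used here.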

Other observations

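Between Tapbp and H2-M2 on chromosome 17 (33915899 to 37483552, GRCm38) the tables held 67 genes, of which 25 were members and 42 were not. The median colitis change of these 42 neighbours was 0.61 log2 in WT and 0.50 in KO, beside 0.13 and 0.19 over all genes, and 23 rose (54.8%, against 36.6% of all genes) and 5 fell (11.9%, against 26.4%) in WT. In KO 27 rose (64.3%, against 44.8%) and 10 fell (23.8%, against 33.6%). Their median of KO minus WT in colitis was −0.07 log2, and 18 of the 42 were higher in KO (42.9%, against 47.4% of all genes). The neighbours include Gm20496, Gm15821, Gm11131 and BC051537, which overlap members on the opposite strand. Whether counting used strand is not known, so their reads may repeat those of members. Gm20547 likewise overlaps the neighbour Cfb.

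Among the neighbours, Ubd, a ubiquitin-like modifier that targets proteins to the proteasome, changed by 3.48 log2 in WT and 3.33 in KO. Tnf changed by 3.86 and 2.73, and the complement gene C4b by 1.95 and 1.38. Trim15 and Trim40, genes of the tripartite motif family, changed by 2.99 and 1.97 log2 in WT and by 2.38 and 1.94 in KO. Aif1, a macrophage gene, changed by 2.11 and 1.75. In the other direction Ly6g6c changed by −1.97 and −1.56, and the lysosomal sialidase Neu1 by −0.81 in WT, with a difference of −0.60 in KO, where it was not listed. These genes were picked after their values were seen.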
